A study of Homo sapiens with 15 samples.

Results

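NRF2, the transcription factor encoded by NFE2L2, drives genes that protect cells from oxidants and reactive chemicals, and the genes described here are NFE2L2 itself, its inhibitor KEAP1 and 8 of its target genes. The targets are HMOX1, FTH1, FTL, GCLC, GCLM, TXNRD1, SRXN1 and NQO1. These 10 genes were taken by symbol and are read by 18 of the 41000 gene probes, which stand for 30992 genes. Gene expression was measured in MDA-MB-231 cells, a human triple-negative breast cancer line, on 15 arrays that each carried treated and control RNA together. On 5 arrays the treated sample was shCtBP2, cells with stable RNA interference of CtBP2, a transcriptional corepressor that binds NADH. According to the methods these cells were transfected with a short hairpin RNA clone set and selected with puromycin, and the methods do not say whether the line is 1 clone. On the other 10 arrays the treated cells had been given HIPP or P4 (5 arrays each), small molecules made as CtBP inhibitors. By the names in the methods, HIPP is an oxime and P4 a hydrazone of phenylpyruvate. All samples were collected after 24 h, and the labels describe the 5 arrays of each treatment as biological replicates. The methods name unequal concentrations of HIPP and P4 for a growth assay, with HIPP the higher, but neither they nor the labels give those used for the arrays, so the values of these treatments are not set at a known matched dose. The control on every array was untreated MDA-MB-231, per the labels, whereas the methods describe scrambled control cells for the silencing.

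In unstressed cells KEAP1 holds NRF2 in the cytoplasm and hands it to a ligase built on CUL3, which marks it for degradation. Oxidants and electrophiles modify KEAP1, and NRF2 then enters the nucleus, pairs with a small MAF protein and binds antioxidant response elements near its target genes. BACH1 competes for the same elements at HMOX1 and leaves DNA when heme binds it.

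The values are log2 ratios of treated to control signal, so that 1 is a doubling and −1 a halving, from the signals that the authors had corrected for background and dye. The treated sample was labeled with Cy5 and the control with Cy3 on all arrays, without a dye swap, so a ratio tested against 0 can hold a dye effect of the probe. Whether arrays shared 1 control extract is not given in the sources used here, and if they did, the ratio leaves out the spread between controls. Ratios were tested with limma over 27582 genes per treatment, with all 15 arrays in 1 fit and Benjamini-Hochberg adjustment. A gene rose or fell where the adjusted p was under 0.05, and it is named as called where its fold change also reached the threshold in the methods, 1.5-fold for shCtBP2, 2.5-fold for HIPP and 1.8-fold for P4. The methods' filter removes the 11% of genes whose interquartile range is lowest, so a gene that differs between the channels is more likely to be tested.

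All 10 genes were well above background in both channels on 15 of 15 arrays. In each channel 64.9 to 81.0% of an array's gene spots were well above background, and 0 spots were saturated. The markers fixed for this line (VIM, CD44, AXL and MSN) were well above background in both channels on 15 of 15 arrays, and PGR, CDH1 and KRT5 on 0 of 15, while EPCAM (control signal 1021 to 2433) and the dimmer ERBB2 and KRT14 were above it on all. ESR1, the estrogen receptor gene, was above background in the control channel on 11 of 15 arrays with a median control signal of 10.5, and TP63 on 3. PTPRC, a blood cell marker, was above background in the control channel on 2 arrays and COL1A1, of fibroblasts, on 11, with median control signals of 3.39 and 13.1. The arrays lay on 4 slides. Of the P4 arrays, replicates 1 to 4 were on slide 1, which was scanned on another day, and replicate 5 shared slide 2 with replicates 1 to 3 of HIPP. The last 2 HIPP arrays were on slide 3 beside replicates 1 and 2 of shCtBP2, whose other 3 arrays filled slide 4. The log2 ratio of CTBP2, the silenced gene, was −0.41 ± 0.11 (SD of 5 arrays, adjusted p = 0.0595) in shCtBP2, lower on 5 of 5 arrays, which did not pass the threshold. Against scramble cells, the paper reports significantly less CtBP2 mRNA by real-time PCR and less of its protein on blots. CTBP2 rose with HIPP (0.57 ± 0.36, SD of 5 arrays, adjusted p = 0.00256), higher on 5 of 5 arrays. With P4 CTBP2 had 0.17 ± 0.35 (SD of 5 arrays, adjusted p = 0.344).

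HMOX1 had the largest ratio of this set with HIPP and with P4, while in shCtBP2 that of NQO1 (−0.47) was larger in size. It encodes heme oxygenase 1, which breaks heme down to biliverdin, carbon monoxide and iron. Its signal was 17.2 times the control with HIPP and 5.45 times with P4, against 1.34 times in shCtBP2. With HIPP, 6 of the 8 tested genes of the set rose and 2 fell, and with P4 7 of 8 rose and 1 fell, whereas in shCtBP2 1 of 8 rose and 1 fell. An array ratio averages over all cells of a culture, so fewer cells of a type and less RNA per cell cannot be told apart.

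**Figure D1:**
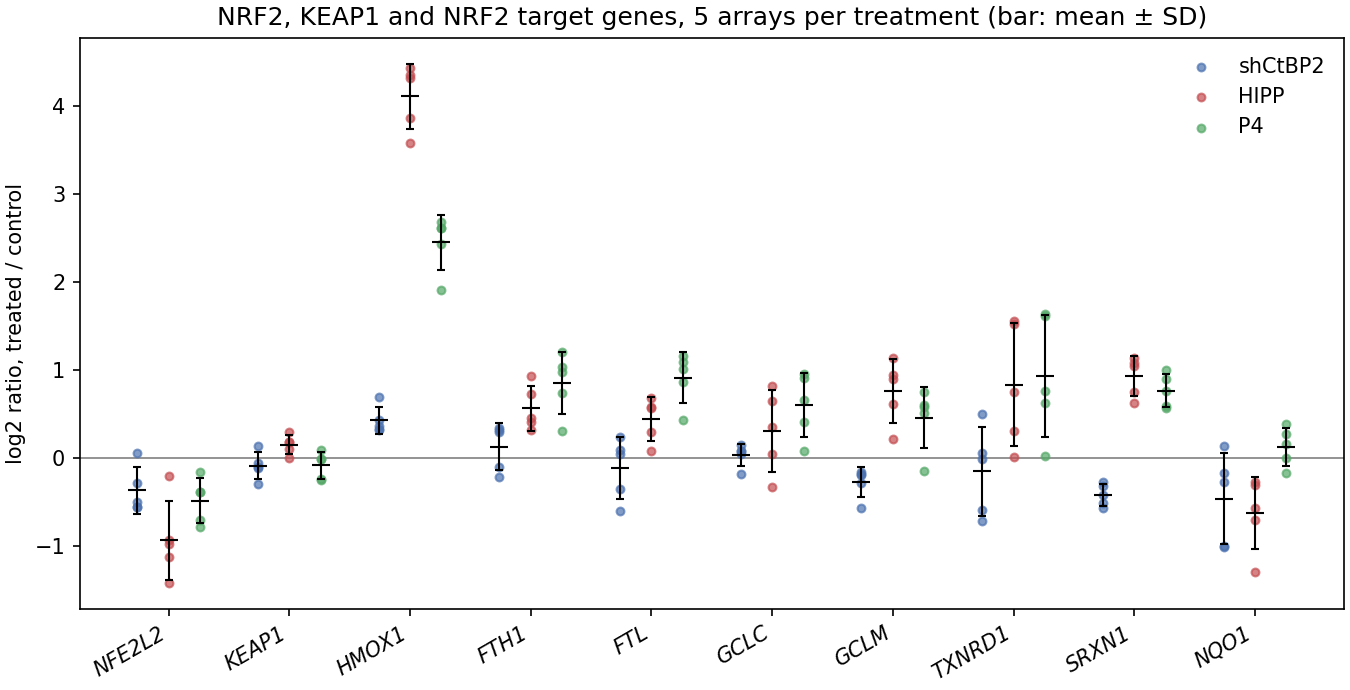
Log2 ratios of treated to control (vertical axis) of NFE2L2, KEAP1 and 8 NRF2 target genes (horizontal axis) on 5 arrays per treatment. Each point is 1 array, the long tick is the mean and the bars are ± 1 SD. HMOX1 with HIPP lies between 3.58 and 4.43, above the 5 P4 arrays at 1.91 to 2.67 and the 5 shCtBP2 arrays at 0.32 to 0.69.

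Read against the background, these counts differ by treatment. The 10 genes were chosen with earlier results of these data known, so the shares of all genes describe the counts and do not test them. At the adjusted threshold 24.9% of all tested genes rose and 23.9% fell with HIPP, 17.1% rose and 14.8% fell with P4, and 6.59% rose and 6.95% fell in shCtBP2. Called with the fold threshold were 0 of the 10 genes in shCtBP2 by limma (6.57% of all tested genes), 1 with HIPP (HMOX1, 7.05%) and 4 with P4 (HMOX1, FTH1, FTL and TXNRD1, 8.46%). Of the 10 genes, 8 were tested in each treatment. The fold thresholds differ between treatments, and at 1.5-fold for each, 6 of the 10 genes were called with HIPP, NFE2L2 and NQO1 among them as lower (32.5% of all tested genes), 6 with P4, all higher (17.5%), and 0 in shCtBP2. For the count of 0, 4 of the 10 had an unadjusted p under 0.05 in shCtBP2, and the methods' t-test after Benjamini-Hochberg also called 0. The median log2 ratio of the 10 genes was −0.14 in shCtBP2, 0.50 with HIPP and 0.68 with P4, beside 0.023, 0.075 and 0.078 over all measured genes. The ratio had 1 sign on 5 of 5 arrays for 3 of the 10 genes in shCtBP2, 9 with HIPP and 7 with P4.

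The antioxidant response element is the DNA sequence that ties these genes together, and its core, TGACNNNGC, was searched on both strands in the 250 bases before each start site in the promoter table of RefSeq (GRCh38.p14). Of the 10 genes 8 are in that table, with 11 start sites, and 4 of the 11 windows, of 3 genes (KEAP1, GCLM and TXNRD1), held the core. It was in 10.9% of all 35116 windows, and in 9 of 32 windows of other NRF2 targets. The AP-1 element TGACTCA was in 4.2% of all windows and lay inside a core match in 160 of them. HMOX1 and FTH1 were not matched in the table. The matches of KEAP1, the inhibitor of NRF2, and of GCLM and TXNRD1, targets that rose with both inhibitors, are shown. Each is printed 5′ to 3′ on the gene's strand, with the core in capitals, which reads as GCNNNGTCA where it lies on the other strand.
KEAP1, chr19:10502772-10502824, minus strand: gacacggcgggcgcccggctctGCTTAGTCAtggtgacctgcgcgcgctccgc
GCLM, chr1:93909434-93909486, minus strand: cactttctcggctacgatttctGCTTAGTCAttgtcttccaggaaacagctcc
TXNRD1, chr12:104215658-104215710, plus strand: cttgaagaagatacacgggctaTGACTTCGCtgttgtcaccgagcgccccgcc
TXNRD1, second start, chr12:104286908-104286960, plus strand: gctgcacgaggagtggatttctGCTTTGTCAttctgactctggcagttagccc
A further core match of KEAP1, on the strand of the gene, overlaps the start of the stretch shown and is left out. The stretches of KEAP1 and GCLM share a run of 13 bases, TCTGCTTAGTCAT, that contains the core. A match is a description of letters and not a measured site, and windows without one, such as those of NQO1, SRXN1, GCLC, FTL and NFE2L2, say only that the letters are not in these 250 bases.

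NFE2L2, the gene of NRF2 itself, fell with both inhibitors. In shCtBP2 replicates 1 to 5 its log2 ratio was 0.05, −0.29, −0.51, −0.56 and −0.56. With HIPP it was −0.21, −0.99, −0.93, −1.42 and −1.13. P4 gave −0.39, −0.16, −0.39, −0.79 and −0.71. The ratio was below 0 on all 10 arrays with an inhibitor and on 4 of 5 shCtBP2 arrays, and the arrays of the treatments overlap. NFE2L2 fell with HIPP (−0.94 ± 0.45, SD of 5 arrays, adjusted p = 0.000106) and with P4 (−0.49 ± 0.26, SD of 5 arrays, adjusted p = 0.0211), under the fold threshold in both, and had −0.37 ± 0.26 in shCtBP2 (SD of 5 arrays, adjusted p = 0.112). With a replicate block NFE2L2 passed the adjusted threshold in shCtBP2 too (adjusted p = 0.0287). Its 2 probes (hg17, chr2:177920784-177920843 and chr2:177954925-177954984, both on the minus strand) differ. The first, with a median control signal of 26839 on the HIPP arrays, had a mean of −0.56 with HIPP and was higher than the control on 1 of 5 arrays, while the second, with a signal of 675, had −1.31 and was lower on all 5. With P4 the first had −0.29 and was higher on 2 of 5 arrays, and the second −0.69. In shCtBP2 the first had −0.52 and was lower on 5 of 5, and the second −0.23.

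KEAP1, which senses electrophiles and retains NRF2, had ratios on both sides of 0. Its single probe (hg17, chr19:10458262-10458321, minus strand) had a log2 ratio of −0.09 ± 0.15 in shCtBP2, 0.15 ± 0.11 with HIPP and −0.09 ± 0.15 with P4 (SD of 5 arrays each). It was among the genes with the lowest interquartile range in each treatment and was not tested. The 15 ratios lie between −0.30 and 0.29.

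HMOX1 is read by 1 probe printed in 10 spots on each array (hg17, chr22:34114676-34114735, plus strand), and the SD between its spots was 0.017 to 0.045 on the log2 scale. With HIPP, replicates 1 to 5 had log2 ratios of 3.86, 4.36, 4.31, 3.58 and 4.43, a mean of 4.11 ± 0.37 (SD of 5 arrays, adjusted p = 2.38e-10), the 10th highest of the 27582 tested genes. P4 gave 1.91, 2.61, 2.43, 2.61 and 2.67, a mean of 2.45 ± 0.31 (SD of 5 arrays, adjusted p = 5.32e-08), which ranks 33rd. In shCtBP2 the ratios were 0.43, 0.32, 0.69, 0.35 and 0.33, a mean of 0.43 ± 0.16 (SD of 5 arrays, adjusted p = 0.0473), past the adjusted threshold and under the 1.5-fold threshold. The 3 treatments do not overlap on any array, with HIPP highest and shCtBP2 lowest.

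**Figure D2:**
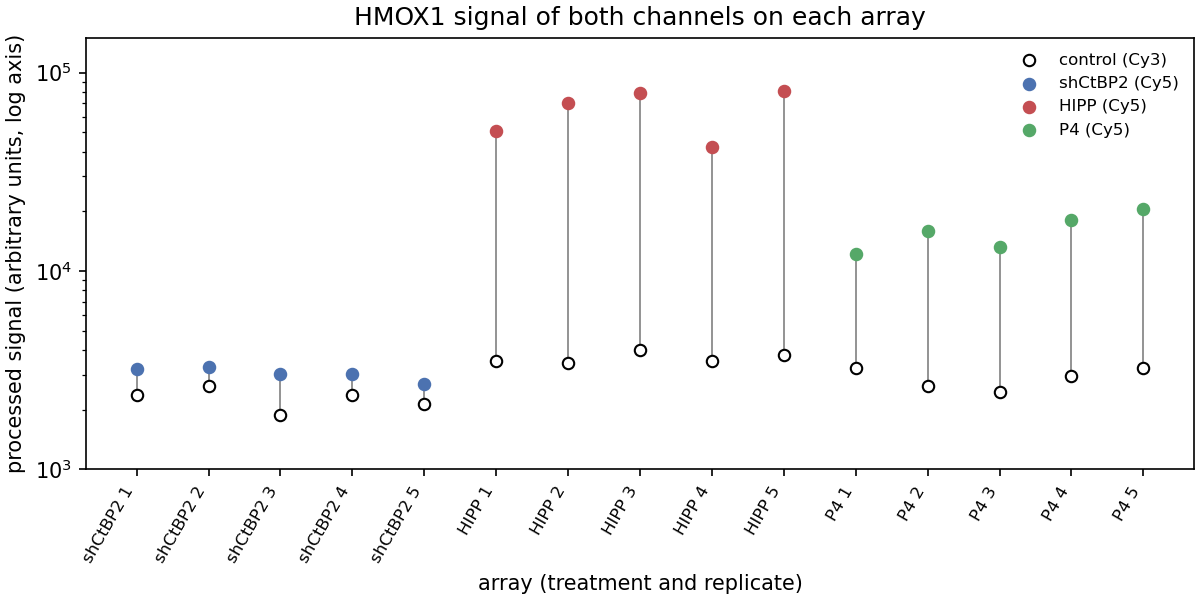
Processed signal of the HMOX1 probe in arbitrary units (vertical axis, log scale) on each of the 15 arrays (horizontal axis), for the control channel (open circles, Cy3) and the treated channel (filled circles, Cy5), joined by a line for each array. The control signals lie between 1879.9 and 3978, while the treated signals reach 42209.7 to 80895 with HIPP, 12169 to 20627 with P4 and 2695 to 3295 in shCtBP2.

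The control signal of HMOX1 was 1879.9 to 2639 on the shCtBP2 arrays, 2441 to 3241 on the P4 arrays and 3416 to 3978 on the HIPP arrays. HMOX1 was called with HIPP and with P4 under all alternatives that were tried, the omission of each array included. Within slide 2 the 3 HIPP arrays had a mean of 4.18 and the P4 array 2.67, and within slide 3 the 2 HIPP arrays had 4.00 and the 2 shCtBP2 arrays 0.37, so HIPP was highest within both slides, and no slide holds both P4 and shCtBP2.

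The 2 ferritin chains, FTH1 and FTL, build the shell in which cells store the iron that heme breakdown releases. Both rose with HIPP and with P4 and were called with P4. In shCtBP2 they had 0.13 ± 0.27 and −0.12 ± 0.35 (SD of 5 arrays each, adjusted p = 0.589 and 0.623). FTH1 with P4 had log2 ratios of 0.30, 0.97, 1.20, 0.73 and 1.03 in replicates 1 to 5. FTL with P4 had 0.43, 0.86, 1.08, 1.01 and 1.16. Replicate 1 was the lowest P4 array for both genes, and the other 4 were at 0.73 or more. The means with P4 were 0.85 ± 0.35 for FTH1 (SD of 5 arrays, adjusted p = 0.000297) and 0.91 ± 0.29 for FTL (SD of 5 arrays, adjusted p = 0.000203).

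With HIPP the ferritins rose less than HMOX1. FTH1 had 0.72, 0.45, 0.93, 0.41 and 0.31 in replicates 1 to 5, a mean of 0.56 ± 0.26 (SD of 5 arrays, adjusted p = 0.00267). FTL had 0.68, 0.29, 0.57, 0.57 and 0.08, a mean of 0.44 ± 0.25 (SD of 5 arrays, adjusted p = 0.0147). All 10 ratios are above 0 and none reaches the 2.5-fold threshold. On uncorrected mean signals of the scan, an alternative chosen after seeing the data, FTL with HIPP turned to −0.14. The median of all tested genes with HIPP was −0.39 there. The P4 calls of both ferritins lie at the 1.8-fold threshold, which is 0.848 on the log2 scale. FTH1 was not called without P4 replicate 2 (0.82), 3 (0.76) or 5 (0.80), and FTL was not called without P4 replicate 5 (0.845), although their adjusted p stayed between 0.00169 and 0.00232 in these 4 fits. FTH1 was also under the threshold on median-centered processed signals (0.82) and with slide as a random block (0.847).

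Ferritin probes can share sequence, as 3 of them show. The first 2 lines are probes of FTH1, with the bases at which they differ in capitals, and the third is a probe of FTL, with the bases at which it differs from the second FTH1 probe in capitals.
FTH1 A_24_P58337, hg17 chr11:61488852-61488911, minus strand: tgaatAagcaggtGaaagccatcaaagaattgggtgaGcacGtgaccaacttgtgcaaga
FTH1 A_32_P111565, hg17 chr11:61488861-61488920, minus strand: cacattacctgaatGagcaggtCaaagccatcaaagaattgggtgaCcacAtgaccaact
FTL A_23_P50498, hg17 chr19:54161668-54161727, plus strand: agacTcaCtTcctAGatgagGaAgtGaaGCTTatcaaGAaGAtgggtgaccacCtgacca
The 2 FTH1 probes overlap by 51 bases and differ at 4 of them, and the array annotation lists pseudogene transcripts beside FTH1 for its probes, so FTH1 values are uncertain as to which copy they read. FTL and the second FTH1 probe align over 57 bases and differ at 17. The first 2 probes, which are 92.2% identical over their overlap, had nearly the same mean with P4 (0.89 and 0.91) and with HIPP (0.53 and 0.53).

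**Figure D3:**
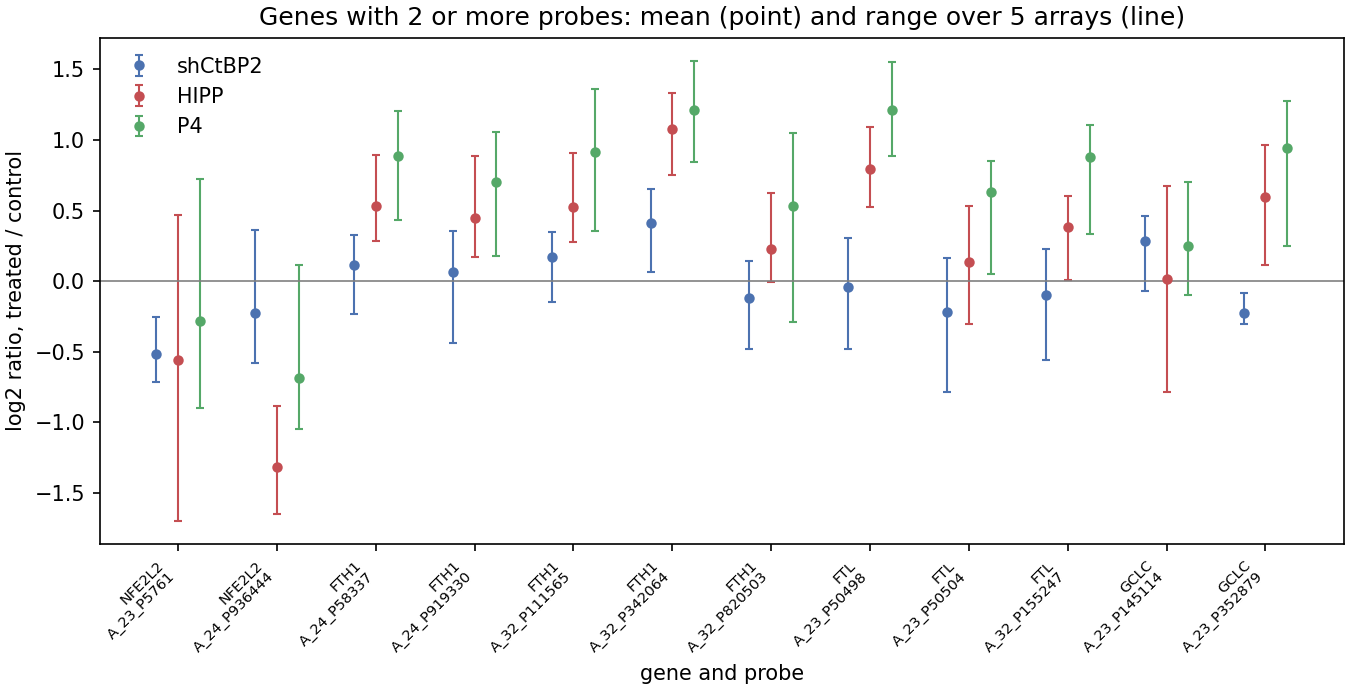
Mean log2 ratio (points) and range over 5 arrays (lines) of each probe of the 4 genes with 2 or more probes, by treatment. All 5 FTH1 probes and all 3 FTL probes have means above 0 with HIPP and P4, from 0.14 to 1.08 with HIPP and 0.53 to 1.21 with P4, and the 2 probes of GCLC and of NFE2L2 differ in size.

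Across the 5 FTH1 probes the means ran from 0.23 to 1.08 with HIPP and from 0.53 to 1.21 with P4, with A_32_P342064 highest and A_32_P820503 lowest in both. The 3 FTL probes ran from 0.14 to 0.79 with HIPP and from 0.63 to 1.21 with P4, with A_23_P50498 highest and A_23_P50504 lowest in both. The highest and the lowest probe of each ferritin were thus the same with both inhibitors.

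Glutamate-cysteine ligase, the enzyme that sets the rate of glutathione synthesis, is built from a catalytic chain (GCLC) and a modifier chain (GCLM). GCLM (hg17, chr1:94066555-94066614, minus strand) had log2 ratios of 1.14, 0.61, 0.94, 0.21 and 0.89 with HIPP. With P4 it had −0.15, 0.60, 0.74, 0.51 and 0.57, and in shCtBP2 −0.18, −0.57, −0.20, −0.16 and −0.29. GCLM was above the control on 9 of the 10 inhibitor arrays, the exception being P4 replicate 1, and below it on 5 of 5 shCtBP2 arrays. It rose with HIPP (0.76 ± 0.36, SD of 5 arrays, adjusted p = 0.000356) and with P4 (0.45 ± 0.35, SD of 5 arrays, adjusted p = 0.0210), and had −0.28 ± 0.17 in shCtBP2 (SD of 5 arrays, adjusted p = 0.195). Both rises were under the fold thresholds.

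GCLC rose with P4, with a range over arrays of 0.07 to 0.96 and a mean of 0.60 ± 0.37 (SD of 5 arrays, adjusted p = 0.00868), under the 1.8-fold threshold. With HIPP it ranged from −0.34 to 0.82 (mean 0.31 ± 0.46, SD of 5 arrays) and in shCtBP2 from −0.19 to 0.14 (mean 0.03 ± 0.13, SD of 5 arrays), and it was not tested in either because of the interquartile filter. Its 2 probes gave different values. A_23_P352879 (hg17, chr6:53471396-53471459) had 0.60 with HIPP and 0.94 with P4 and was higher on 10 of 10 inhibitor arrays, whereas A_23_P145114 (hg17, chr6:53470156-53470215) had 0.02 and 0.25 and was higher on 3 of 5 arrays with each. In shCtBP2 the first had −0.23 and was lower on 5 of 5 arrays, and the second had 0.28 and was higher on 4 of 5, so the mean of the gene combines ratios of opposite sign.

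In the thioredoxin system, TXNRD1 (thioredoxin reductase 1) supplies the electrons and SRXN1 (sulfiredoxin 1) repairs overoxidized peroxiredoxins. The values of TXNRD1 (hg17, chr12:103245100-103245159, plus strand) varied most between arrays with both inhibitors. With HIPP it had 1.52, 0.75, 1.55, 0.0036 and 0.31, a mean of 0.83 ± 0.70 (SD of 5 arrays, adjusted p = 0.0179). P4 gave 0.02, 1.64, 1.61, 0.62 and 0.76, a mean of 0.93 ± 0.69 (SD of 5 arrays, adjusted p = 0.0155), past the fold threshold. No array with an inhibitor was below the control, and 1 array of each inhibitor was at the control level, HIPP replicate 4 and P4 replicate 1. In shCtBP2 the ratios were 0.50, 0.05, −0.01, −0.60 and −0.72, on both sides of 0 (−0.16 ± 0.50, SD of 5 arrays, adjusted p = 0.761). The P4 call was lost without replicate 2 (0.75, adjusted p = 0.0637) and without replicate 3 (0.76, adjusted p = 0.0625), and the ratio was 0.07 with slide as a fixed block. It was also lost with the methods' t-test (adjusted p = 0.14), with the P4 arrays fitted alone (adjusted p = 0.0534), with normexp correction and loess (0.842, under the threshold) and on uncorrected mean signals (0.72, adjusted p = 0.145).

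SRXN1 (hg17, chr20:575563-575622, minus strand) varied least of the genes that rose. With HIPP it had 1.13, 1.05, 1.08, 0.75 and 0.62, and with P4 0.56, 0.59, 0.76, 0.89 and 1.00. The shCtBP2 ratios were −0.27, −0.57, −0.32, −0.52 and −0.43. All 10 inhibitor arrays lie above all 5 shCtBP2 arrays, on opposite sides of 0. SRXN1 rose with HIPP (0.93 ± 0.23, SD of 5 arrays, adjusted p = 1.97e-06) and P4 (0.76 ± 0.19, SD of 5 arrays, adjusted p = 5.59e-05) and fell in shCtBP2 (−0.42 ± 0.13, SD of 5 arrays, adjusted p = 0.00936), under the fold threshold in each. In shCtBP2 it thus went the other way from HMOX1.

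NQO1, which reduces quinones and is a usual readout of NRF2, did not follow HMOX1. With HIPP it had −0.27, −0.57, −0.31, −0.71 and −1.29 and fell (−0.63 ± 0.41, SD of 5 arrays, adjusted p = 0.00753), under the fold threshold. With P4 its ratios lay between −0.17 and 0.38 (0.12 ± 0.22, SD of 5 arrays) and it was not tested because of the interquartile filter. In shCtBP2 they were 0.13, −0.27, −0.17, −1.01 and −1.02 (−0.47 ± 0.52, SD of 5 arrays, adjusted p = 0.0912), with replicates 4 and 5 well below the other 3. Without shCtBP2 replicate 1 NQO1 was called lower in shCtBP2 (−0.62, adjusted p = 0.0477). The arrays of HIPP and P4 do not overlap for NQO1.

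The sample-to-sample spread had a pattern over the set. P4 replicate 1 was the lowest of the 5 P4 arrays for 7 of the 10 genes. HIPP replicates 4 and 5, which lay on slide 3, were the lowest HIPP arrays for 5 genes each, and for 6 of the 10 genes (NFE2L2, FTH1, GCLC, TXNRD1, SRXN1 and NQO1) all 3 HIPP ratios of slide 2 lay above the 2 of slide 3. For TXNRD1 the slide means were 1.28 and 0.16, for SRXN1 1.09 and 0.69, and for HMOX1 4.18 and 4.00. With slide as a fixed block HMOX1 remained called with P4, NFE2L2 was called lower (−1.03, adjusted p = 0.0293), and FTH1 (0.73), FTL (0.88) and TXNRD1 (0.07) were not called.

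A second question is whether the treatments differ from each other. The differences between treatments were tested as contrasts in the same fit, over the genes tested in both. The 3 differences share arrays and are not independent of each other. HIPP minus shCtBP2 passed the adjusted threshold for 4 of the 10 genes (26.3% of all genes tested), P4 minus shCtBP2 for 5 (12.1%) and HIPP minus P4 for 1 (10.6%). KEAP1 and GCLC were tested in none of the 3 differences, and NQO1 only in HIPP minus shCtBP2.

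**Figure D4:**
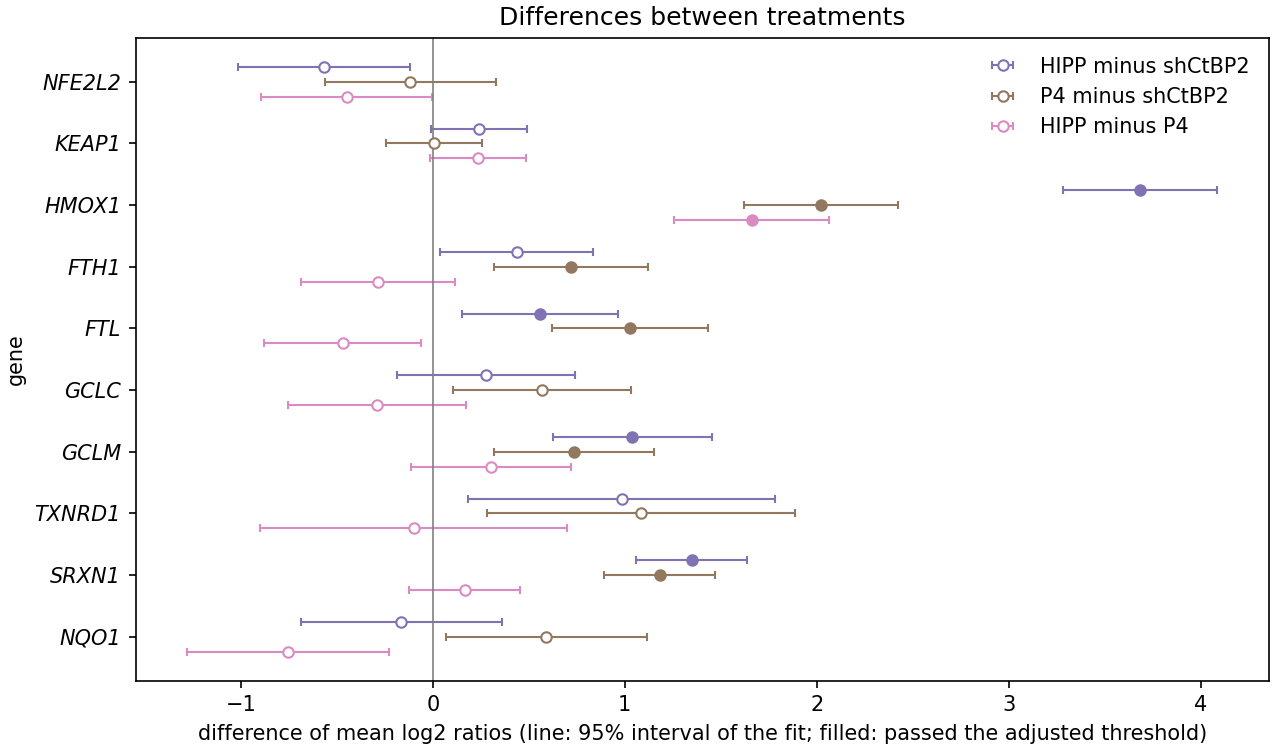
Differences of mean log2 ratios between treatments (horizontal axis) for each gene (vertical axis), with the 95% interval of the fit as lines and filled points where the difference passed the adjusted threshold. HMOX1 is the gene with a filled point in all 3 comparisons, at 3.68, 2.02 and 1.66, and the intervals of HIPP minus P4 for GCLC, GCLM, FTH1, TXNRD1 and SRXN1 include 0.

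HMOX1 was higher with HIPP than in shCtBP2 by 3.68 (95% interval 3.28 to 4.09, adjusted p = 4.80e-08), higher with P4 than in shCtBP2 by 2.02 (1.62 to 2.42, adjusted p = 1.53e-05) and higher with HIPP than with P4 by 1.66 (1.26 to 2.06, adjusted p = 0.000271). The last difference did not pass with slide as a fixed block (1.502, adjusted p = 0.134), where 1 slide holds both inhibitors, or on uncorrected mean signals (1.02, adjusted p = 0.432), and on those P4 minus shCtBP2 did not pass either (1.95, adjusted p = 0.122). SRXN1 was higher with HIPP than in shCtBP2 by 1.35 (adjusted p = 5.83e-06) and with P4 by 1.18 (adjusted p = 7.30e-05). GCLM was higher by 1.04 with HIPP (adjusted p = 0.00103) and by 0.74 with P4 (adjusted p = 0.0234). FTL was higher by 0.56 with HIPP (adjusted p = 0.0429) and by 1.03 with P4 (adjusted p = 0.00279), and FTH1 by 0.72 with P4 (adjusted p = 0.0215). On uncorrected mean signals SRXN1 had 0.61 with HIPP (adjusted p = 0.502) and 1.13 with P4 (adjusted p = 0.841), and GCLM 0.27 (adjusted p = 0.81) and 0.64 (adjusted p = 1), none of which passed. FTL (1.08) and FTH1 (0.80) in P4 minus shCtBP2 did not pass there either.

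Several of these differences lay close to the threshold. FTL in HIPP minus shCtBP2 did not pass in 9 of the 15 fits that left out 1 array (0.44 to 0.65): without shCtBP2 replicate 2, 4 or 5, HIPP replicate 1, 2, 3 or 4, or P4 replicate 2 or 4. It also did not pass on background-subtracted signals (0.42, adjusted p = 0.203) or with a replicate block (0.56, adjusted p = 0.0613). For P4 minus shCtBP2, FTH1 did not pass without shCtBP2 replicate 4 (0.64) or 5 (0.66) or P4 replicate 5 (0.68), and GCLM did not pass without shCtBP2 replicate 2 (0.66) or P4 replicate 3 (0.66), 4 (0.72) or 5 (0.71). TXNRD1 was higher by 0.98 with HIPP (0.18 to 1.78, adjusted p = 0.0669) and by 1.08 with P4 (0.28 to 1.88, adjusted p = 0.0742), which did not pass. It did pass for HIPP without shCtBP2 replicate 1 (1.15), HIPP replicate 4 (1.19) or P4 replicate 1 (0.98), and for P4 without P4 replicate 1 (1.31). With all arrays kept, both differences of TXNRD1 passed without dim probes (adjusted p = 0.0413 and 0.0428), with slide as a random block (1.06 and 1.15, adjusted p = 0.04 and 0.0378) and with a replicate block (adjusted p = 0.0363 and 0.0408). The difference of NFE2L2 between HIPP and shCtBP2 was −0.57 (−1.01 to −0.12, adjusted p = 0.0598) and it passed without HIPP replicate 1 (−0.75), on background-subtracted signals (−0.64, adjusted p = 0.0438), without dim probes (adjusted p = 0.0347) and with a replicate block (adjusted p = 0.012). With slide as a fixed block, SRXN1 (1.02, adjusted p = 0.0688), FTL (0.83), GCLM (0.61) and FTH1 (0.39) did not pass in P4 minus shCtBP2, which share no slide, and GCLM (0.93, adjusted p = 0.0540) and FTL (0.18) did not pass in HIPP minus shCtBP2, while NFE2L2 did (−1.16, adjusted p = 0.0131).

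Between HIPP and P4, whose doses on the arrays are not known to match, the other tested genes did not pass. The difference was −0.29 for FTH1 (−0.69 to 0.11), −0.47 for FTL (−0.88 to −0.06), 0.30 for GCLM (−0.11 to 0.72), −0.10 for TXNRD1 (−0.90 to 0.70), 0.17 for SRXN1 (−0.12 to 0.46) and −0.45 for NFE2L2 (−0.90 to −0.0017), with adjusted p from 0.145 to 0.948. NFE2L2 passed without HIPP replicate 1 (−0.63, adjusted p = 0.0364). These intervals hold differences of up to 0.90 on the log2 scale for TXNRD1, so they do not show that the inhibitors act alike on these genes. NQO1 had −0.76 (−1.28 to −0.23), which was not tested with P4.

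The wider pathway was read from 3 lists of genes outside the set, also chosen with earlier results of these data known. The regulators and partners of NRF2 (14 genes, with the small MAF proteins, BACH factors, CUL3 and related NFE2 family members) split in both directions. With HIPP 6 of the 14 rose and 7 fell, with P4 5 rose and 3 fell of 10 tested, and in shCtBP2 2 rose and 2 fell of 12 tested. Over all tested genes these shares were 24.9 and 23.9% with HIPP, 17.1 and 14.8% with P4 and 6.59 and 6.95% in shCtBP2. Their median log2 ratio was 0.03 in shCtBP2, −0.04 with HIPP and 0.11 with P4, beside 0.023, 0.075 and 0.078 over all measured genes. The 6 that rose with HIPP, named after their values were seen, were NFE2L1 (1.25), MAFK (0.95), BACH1 (0.91), MAFG (0.84), MAFF (0.57) and SQSTM1 (0.52). The 5 that rose with P4 were MAFG (0.61), SQSTM1 (0.54), BACH2 (0.47), MAFK (0.37) and NFE2L1 (0.27). BACH1, which competes at HMOX1, had 0.38 with P4 (adjusted p = 0.0541) and −0.02 in shCtBP2, and did not pass in either.

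CUL3, the scaffold of the ligase that degrades NRF2, fell most in that list with HIPP and with P4. In shCtBP2 CUL3 had −0.24 and did not pass (adjusted p = 0.235). With HIPP its ratios were −2.49, −3.20, −2.67, −2.51 and −2.84 (mean −2.74 ± 0.29, SD of 5 arrays, adjusted p = 2.14e-09) and with P4 −1.77, −1.73, −0.90, −1.55 and −1.48 (mean −1.48 ± 0.35, SD of 5 arrays, adjusted p = 1.66e-06). All 10 arrays were below the control, and the HIPP and P4 arrays do not overlap. With normexp correction and loess CUL3 had −1.10 with HIPP and was under the fold threshold. NFE2L3, a relative of NFE2L2, was called lower in all 3 treatments, at −0.65 ± 0.15 in shCtBP2, −1.92 ± 0.36 with HIPP and −1.23 ± 0.30 with P4 (SD of 5 arrays each, adjusted p = 0.00445, 3.83e-08 and 1.14e-05). These 3 calls were lost when the brightest probe stood for the gene (−0.28, −1.14 and −0.75). With normexp correction and loess the calls in shCtBP2 (−0.45) and with HIPP (−1.18) were lost, and in shCtBP2 also with slide as a fixed block (−0.37, adjusted p = 0.302) and on uncorrected mean signals (−0.54, adjusted p = 0.161). NFE2, the blood cell member of the family, was called higher in shCtBP2 (1.56 ± 0.26, SD of 5 arrays, adjusted p = 1.13e-05), where 1 of 5 control signals was well above background. The NFE2 call was lost with normexp correction and loess (0.37) and on uncorrected mean signals (0.17, adjusted p = 0.147).

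**Figure D5:**
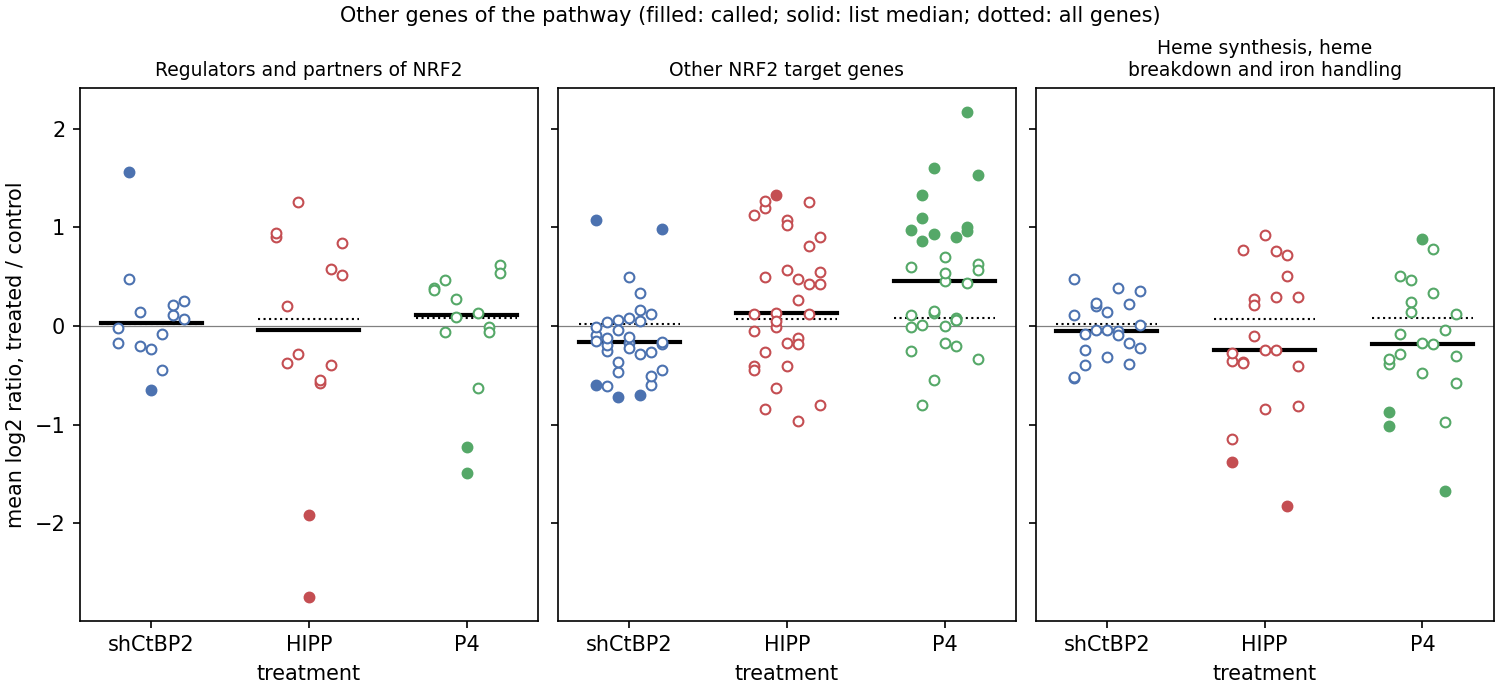
Mean log2 ratio of treated to control over 5 arrays (vertical axis) of the genes of 3 lists by treatment (horizontal axis), filled where called. The solid line is the median of the list and the dotted line the median of all measured genes. For other NRF2 targets the solid line lies at 0.46 with P4, 0.13 with HIPP and −0.16 in shCtBP2, and 11 filled points lie above 0 with P4.

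Other NRF2 targets, of which 33 of 35 are on the arrays, had 11 calls with P4, 1 with HIPP and 5 in shCtBP2, at fold thresholds that differ. With P4 18 rose and 1 fell of 31 tested, and 11 were called higher and 0 lower, beside 4.29% and 4.17% of all tested genes called in these directions. With HIPP 13 rose and 7 fell of 28 tested and 1 was called, and in shCtBP2 3 rose and 5 fell of 28 tested, with 2 called higher and 3 lower, beside 7.05 and 6.57% of all tested genes called with HIPP and in shCtBP2. The 7 that fell with HIPP are near the 23.9% of all tested genes that did. At 1.5-fold for each treatment, 9 were called higher and 4 lower with HIPP, and 14 and 0 with P4, beside 32.5 and 17.5% of all tested genes called in either direction. The medians of the 33 genes were −0.16 in shCtBP2, 0.13 with HIPP and 0.46 with P4.

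AKR1B10, an aldo-keto reductase, had the largest ratio of these targets with P4, at 1.47, 2.47, 2.59, 1.90 and 2.40 (mean 2.16 ± 0.47, SD of 5 arrays, adjusted p = 9.39e-06). ABCC3, an exporter of organic anions, followed with 1.60 ± 0.30, then AKR1C1 with 1.53 ± 0.58 and TRIM16 with 1.32 ± 0.43 (SD of 5 arrays each, adjusted p = 4.90e-06, 0.000272 and 0.000254). All 20 ratios of these 4 genes with P4 were above 0. The calls of AKR1C1 and TRIM16 were lost with slide as a fixed block (1.09 and 0.53), and that of TRIM16 with the methods' t-test (adjusted p = 0.0546). AKR1C1 and AKR1C3 have near-identical relatives that a probe may not tell apart. The other 7 called with P4 were named after their values were seen. They are SLC7A11 (1.00 ± 0.27), the cystine carrier that feeds glutathione synthesis, glutathione reductase GSR (0.86 ± 0.14), the NADPH sources ME1 (0.97 ± 0.07) and IDH1 (0.90 ± 0.23), and ABCC2 (1.10 ± 0.23), OSGIN1 (0.97 ± 0.38) and PIR (0.93 ± 0.15, SD of 5 arrays each). With HIPP AKR1B10 (1.26), TRIM16 (1.26), ABCC2 (1.20), OSGIN1 (1.13) and AKR1C1 (0.90) also rose, under its 2.5-fold threshold. So did SLC7A11 (0.82), GSR (0.50) and ME1 (0.43). PIR (0.13) did not pass with HIPP, and IDH1 (0.48) was not tested there.

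The same list had 1 call with HIPP and 5 in shCtBP2. ABCC3 with HIPP had 1.33 ± 0.48 (SD of 5 arrays, adjusted p = 5.56e-06), just past the 2.5-fold threshold of 1.32, and was under it without HIPP replicate 2 or without replicate 4 (1.13). It was also under it with normexp correction and loess (1.03), with median centering of background-subtracted (1.28) or processed (1.27) signals, with slide as a random block (1.321) and on uncorrected mean signals (0.60, adjusted p = 0.077). In shCtBP2 ABCC3 was called lower (−0.72 ± 0.20, SD of 5 arrays, adjusted p = 0.00645), and AKR1C3 (1.07 ± 0.13) and AKR1C1 (0.99 ± 0.16) were called higher (SD of 5 arrays each, adjusted p = 0.000231 and 0.0129). The ABCC3 call in shCtBP2 was lost with slide as a fixed block (−0.87, adjusted p = 0.0803) and with normexp correction and loess (−0.49, adjusted p = 0.0889), and the AKR1C1 call with normexp correction and loess (0.54, adjusted p = 0.0911) and with the brightest probe (0.90, adjusted p = 0.0659). Both calls were also lost on uncorrected mean signals (ABCC3 −0.63, adjusted p = 0.106, and AKR1C1 0.53, adjusted p = 0.137). The 15 ratios of ABCC3 were thus below 0 on all 5 shCtBP2 arrays and above 0 on all 10 inhibitor arrays. CES1, a carboxylesterase, was called lower in shCtBP2 (−0.70 ± 0.56, SD of 5 arrays, adjusted p = 0.0322), where 2 of 5 treated signals were well above background, and the call was lost without shCtBP2 replicate 1, 3, 4 or 5 (−0.45 without replicate 4), with normexp correction and loess (−0.15), with slide as a fixed block (adjusted p = 0.155), with the shCtBP2 arrays fitted alone (adjusted p = 0.0652), with the methods' t-test (adjusted p = 0.883) and on uncorrected mean signals (−0.28). The 5th gene called in shCtBP2, ABCC1 (−0.60 ± 0.20, SD of 5 arrays, adjusted p = 0.0135), was named after its value was seen.

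Among heme and iron genes, which surround the reaction of HMOX1, genes moved in both directions. Of 22 genes 5 rose and 9 fell with HIPP (20 tested), 3 rose and 5 fell with P4 (17 tested) and 2 rose and 4 fell in shCtBP2 (18 tested), beside 24.9% rising and 23.9% falling over all tested genes with HIPP, 17.1 and 14.8% with P4, and 6.59 and 6.95% in shCtBP2. The 5 that rose with HIPP and the 3 with P4 are near these shares. The medians of the list were −0.24, −0.18 and −0.05. Called were 2 with HIPP, both lower, 4 with P4, 3 of them lower, and 0 in shCtBP2 by limma, beside 7.05, 8.46 and 6.57% of all tested genes. At 1.5-fold for each treatment, 3 were called higher and 5 lower with HIPP and 2 and 3 with P4, beside 32.5 and 17.5%.

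TFRC, the transferrin receptor that brings iron into cells, fell most of this list with HIPP and with P4. With HIPP its ratios were −0.79, −2.42, −1.10, −2.96 and −1.88 (mean −1.83 ± 0.90, SD of 5 arrays, adjusted p = 6.46e-05) and with P4 they ran from −2.49 to −0.78 with a median of −1.94 (mean −1.67 ± 0.69, SD of 5 arrays, adjusted p = 0.000415). All 10 arrays were below the control, with a wide and overlapping range for both inhibitors. UROS, an enzyme of heme synthesis, had −1.38 ± 0.26 with HIPP and −0.87 ± 0.24 with P4 (SD of 5 arrays each, adjusted p = 1.23e-07 and 4.44e-05), and its calls were lost without HIPP replicate 2 (−1.31) or 5 (−1.30) and without P4 replicate 1 (−0.79) or 2 (−0.84), with normexp correction and loess (−1.01 and −0.80) and, with P4, with slide as a fixed block (−0.82). ACO1, the iron regulatory protein with aconitase activity, fell with P4 (−1.01 ± 0.17, SD of 5 arrays, adjusted p = 4.24e-06), and SLC48A1, a heme carrier of lysosomes, rose (0.88 ± 0.24, SD of 5 arrays, adjusted p = 1.46e-05) but was under the fold threshold without P4 replicate 4 or 5 (both 0.81), with normexp correction and loess (0.80), on background-subtracted signals (0.83) and on uncorrected mean signals (0.69), and did not pass with the methods' t-test (adjusted p = 0.0657). ACO1 with slide as a fixed block had −0.79 with P4, under the threshold.

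The genes whose 15 ratios were most like those of HMOX1 were outside the NRF2 lists. Among 12055 genes with a current symbol whose treated signals were well above background on all 15 arrays, SIPA1L2 had the highest Pearson r with HMOX1 (0.99), and MXD1, C19orf47 and ZFAND5 had 0.98 each. These correlations run over 15 arrays in 3 treatments, so they mostly describe the step from shCtBP2 to P4 to HIPP, and arrays of a slide share it. MXD1, a repressor of the MYC network, had −0.21 ± 0.18 in shCtBP2, 2.21 ± 0.20 with HIPP and 1.02 ± 0.18 with P4. SIPA1L2 had −0.49 ± 0.17, 1.51 ± 0.36 and 0.66 ± 0.25, and ZFAND5 0.10 ± 0.13, 1.79 ± 0.23 and 0.92 ± 0.23 (SD of 5 arrays each). Within the set SRXN1 (0.91, rank 260) and GCLM (0.88, rank 412) came closest, the ferritins had 0.52 and 0.50, and NQO1 had −0.10.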

How the data were processed

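RNA of 15 samples of a human cell line was hybridized to 2-color Agilent arrays, 5 for each treatment, with treated RNA in Cy5 and control RNA in Cy3. The authors processed the scanned images with Feature Extraction (version 9.5.3.1, per the file headers), and the deposited processed intensities of both channels are corrected for background and dye. Probe positions are those of the array design (hg17). The deposited value table holds log10 ratios centered to a median of 0, and was used as an alternative. Each array has 43376 gene spots, and the 78 to 265 with a non-uniformity or outlier flag were left out. Samples were grouped by their treatment label, and 0 columns of other samples were present.

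From the intensities, log2 of Cy5 over Cy3 was averaged over the spots of a probe and the probes of a gene. Of the 41000 gene probes, 23434 were named by accession, 2317 by symbol and 1040 by synonym through RefSeq's gene table, and 14209 kept the name of the design. Genes with values on fewer than 3 of 5 arrays were not tested, and the 11% with the lowest interquartile range over the 10 channel signals of a treatment were removed. Ratios were tested against 0 and against each other with limma (version 3.58.1, R 4.3.3), with Benjamini-Hochberg adjustment at 0.05 over all genes tested. The methods' t-test was an alternative, on log2 signals of the 2 channels. Other alternatives were normexp correction (offset 50) with loess, other centering, the authors' table, no interquartile filter, no dim probes, the brightest probe, slide or replicate number as a block, other fold thresholds, fewer arrays in the fit, and the omission of each array. Mean signals without correction were added after seeing the data. The steps were tested on simulated data. The number of arrays limits the precision.

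The 10 genes and the 3 lists were chosen with earlier results of these data known. Beside the 10 genes, the text names the called genes with the 4 largest ratios of each list and treatment, and the 5 genes most like HMOX1, of which 1 is not reported here, unless it says that a gene was named after its value was seen. The replicates are biological per the labels.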

Additional observations from a re-analysis of the deposited data

Results flagged for a closer look

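In 51 groups of 5 arrays, 1 array stood apart from the other 4 by Dixon's test in 4 groups, and chance gives about 1 in 20. GCLM in P4 replicate 1 had a log2 ratio of −0.15, below the other 4 P4 arrays (0.51 to 0.74). NFE2 in shCtBP2 replicate 4 had 1.09, while the other 4 lay at 1.62 to 1.71, and 1 of its 5 control signals was well above background. CES1 in shCtBP2 replicate 4 had −1.68, while the others lay at −0.59 to −0.23, and 2 of its 5 treated signals were well above background. ACO1 in P4 replicate 2 had −1.32, while the others lay at −0.98 to −0.90.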

How the results depend on the processing

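Of 348 alternative counts, 308 stayed within 1.5 times the value reported, and of 1530 alternative ratios of single genes, 1425 kept their direction and side of the threshold or, where untested, stayed within 1 SD. HMOX1 stayed called with HIPP and with P4 in each. Called genes of the set ran over the fits that left out 1 array from 0 to 1 in shCtBP2 (1 without shCtBP2 replicate 1) and from 2 to 4 with P4 (2 without P4 replicate 2, 3 or 5), and stayed at 1 with HIPP. Called genes of the other lists ran from 6 to 7, 3 to 6 (3 without HIPP replicate 2) and 15 to 19 for shCtBP2, HIPP and P4, where all arrays gave 7, 5 and 17, and all called genes from 1298 to 1921, 1731 to 2232 and 2097 to 2798. Genes of the set past the threshold ran from 3 to 5 in HIPP minus shCtBP2, 3 to 6 in P4 minus shCtBP2 (3 without P4 replicate 5) and 1 to 2 in HIPP minus P4 (2 without HIPP replicate 1).

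With normexp correction and loess 269, 280 and 584 genes were called for shCtBP2, HIPP and P4, and 1, 1 and 10 of the other lists. Without a fold threshold 3734, 13444 and 8800 were called, 2, 8 and 8 of the set and 18, 47 and 35 of the other lists. At 1.5-fold HIPP had 8976 (6 of the set, 27 of the lists) and P4 4831 (6 and 23). The methods' t-test called 969 in shCtBP2 and 891 with P4, and 1618 with HIPP. On mean signals, chosen after seeing the data, 271 were called in shCtBP2 and 609 with P4, 2 of the set with HIPP, and 1 and 11 of the lists in shCtBP2 and with P4. There 1, 0 and 0 genes of the set differed in HIPP minus shCtBP2, P4 minus shCtBP2 and HIPP minus P4. With slide as a fixed block 2 of the set and 11 of the lists were called with P4, and 1 and 0 of the set differed in P4 minus shCtBP2 and HIPP minus P4.

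On mean signals these values changed sign, none with an adjusted p under 0.05: FTL in shCtBP2 (0.037) and with HIPP (−0.14), in HIPP minus shCtBP2 FTH1 (−0.26) and FTL (−0.17), and in HIPP minus P4 GCLM (−0.37) and SRXN1 (−0.52). Of values that were not tested, GCLC (−0.37) and KEAP1 (−0.58) with HIPP, NQO1 with P4 (−0.019), GCLC (−0.38) and KEAP1 (−0.51) in HIPP minus shCtBP2, and KEAP1 in HIPP minus P4 (−0.42) and in P4 minus shCtBP2 (−0.088) also changed sign there. So they did with slide as a fixed block for shCtBP2 FTL (0.048), NFE2L2 (0.13), NQO1 (0.030) and TXNRD1 (0.71), and for TXNRD1 in HIPP minus P4 (0.52), HIPP minus shCtBP2 (−0.12) and P4 minus shCtBP2 (−0.64), and, untested, for NQO1 with P4 (−0.25) and in P4 minus shCtBP2 (−0.28), GCLC in HIPP minus shCtBP2 (−0.22) and P4 minus shCtBP2 (−0.17), and KEAP1 in P4 minus shCtBP2 (−0.24). On background-subtracted signals FTL in shCtBP2 had 0.0034 and SRXN1 in HIPP minus P4 −0.028, and with the brightest probe NFE2L2 in P4 minus shCtBP2 had 0.23 and GCLC −0.27 and −0.031 in HIPP and P4 minus shCtBP2. Other untested values that turned went no lower than −0.055 (KEAP1 in P4 minus shCtBP2 with normexp correction and loess). FTL in shCtBP2 turned to 0.0021 without shCtBP2 replicate 4 (range over omissions −0.21 to 0.0021), NQO1 in HIPP minus shCtBP2 to 0.0016 without HIPP replicate 5 (−0.30 to 0.0016), and TXNRD1 in HIPP minus P4 to 0.11, 0.029, 0.077 and 0.070 without HIPP replicate 4 or 5 or P4 replicate 2 or 3 (−0.33 to 0.11). The causes were not tested.

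Mean signals moved the median of all tested genes to −0.22, −0.39 and −0.26 (reported: 0.04, 0.08 and 0.11) and the share of called genes that were higher to 31.4, 2.54 and 35.5% (reported: 50.9, 48.7 and 50.8%). The authors' table moved the P4 median to 0. Replicate numbers were not taken as pairs, since not every correlation was over 0.1: same-numbered arrays had −0.03 to 0.47 (median 0.17), others a median of −0.087, and 7 of 15 arrays correlated best with their own number. With a replicate block 2222, 1943 and 2429 genes were called (reported: 1813, 1944 and 2333), 0, 1 and 4 of the set, and in HIPP minus shCtBP2 FTL did not pass (adjusted p = 0.0613) while NFE2L2 and TXNRD1 did, as did TXNRD1 in P4 minus shCtBP2.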
